A study of Mus musculus with 10 samples.

Results

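The insulin-like growth factor (IGF) genes were followed in mouse tumours grown from embryonic fibroblasts that carried RAS and DNP53. The label of the authors' expression data names this RAS as RAS-G12V. The set was chosen by gene symbol: 2 ligands (Igf1, Igf2), 2 receptors (Igf1r, Igf2r) and 6 binding proteins (Igfbp2 to Igfbp7 by name). Each of the 10 symbols had a row of its own and a valid test among the 27968 rows of the authors' table, of which 16681 were tested. RNA came from 5 tumours in immune-compromised mice. In 3 of them, from cells numbered 12 and 14, cyclin D1 carried a tag, and in 2, from cells numbered 18 and 25, it did not. All cells were of the C57BL/6 strain, all tumours carried RAS and DNP53, and every animal received HA-siRNA in the Aonys formulation by the rectal route. No cell number occurs in both groups, tagged replicates 2 and 3 share number 14, and each library was run on 2 lanes. The titles hold 2 codes, SND393_A and SND393_B, which may mark sequencing runs, though the labels do not say so. Tumours of both groups carried each code. The sources used here do not say whether the deposited test took account of the code. The mRNA of a dissected tumour includes that of the host cells within it.

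The authors' deposited table gives 1 abundance for each of 2 conditions, C1 and C2, in FPKM (fragments scaled to transcript length and library size), a level per length that can be compared between genes. It does not say which condition is tagged, so directions describe C2 against C1. There is no value per tumour, so no spread, SD or n accompanies a level, and library depth is unknown. The p and q are those of Cuffdiff as deposited, and a gene was called at q under 0.05. The sources used here do not say whether that test treated tumours or lanes as its replicates.

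IGF1 and IGF2 are secreted peptides that signal growth and survival through the receptor tyrosine kinase IGF1R. IGF2R, the mannose 6-phosphate receptor, takes IGF2 into the cell for breakdown. The binding proteins hold the peptides outside the cell and either withhold them from the receptor or carry them to it, and proteases such as PAPP-A release the peptides again. In the mouse embryo Igf2 is expressed from the paternal allele, and fibroblasts and developing muscle are among its known sources.

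Of the 10 genes 1 rose and 1 fell. Igf2 fell 10.1-fold and Igfbp5 rose 3.47-fold from C1 to C2, by the values of the authors' deposited table. Of all tested rows 7.12% were called, 4.20% higher and 2.92% lower in C2, against 2 of 10 here, a count too small to set the family apart. Values of 8 members were lower in C2 and of 2 higher. Their median log2 ratio was -0.39, beside 0.05 over all tested rows. In bulk tumour RNA fewer cells of a type and less RNA per cell cannot be told apart.

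The 250 bases before and 50 bases after a transcription start are shown for 3 of the genes: the one that fell, the one that rose, and Igfbp4, the most abundant. The sequences are RefSeq's on GRCm38.p6, a later build than that of the expression table, and are written on the strand of the gene. Capitals mark matches, on either strand, to 4 motifs. The TATA box was searched as TATAAA. The CCAAT box was searched under its own letters. The GC box was searched as GGGCGG. The last motif was TATTTAA, an AT-rich variant.
Igf2, chr7:142657447-142657746, minus strand, the furthest downstream of 4 listed starts: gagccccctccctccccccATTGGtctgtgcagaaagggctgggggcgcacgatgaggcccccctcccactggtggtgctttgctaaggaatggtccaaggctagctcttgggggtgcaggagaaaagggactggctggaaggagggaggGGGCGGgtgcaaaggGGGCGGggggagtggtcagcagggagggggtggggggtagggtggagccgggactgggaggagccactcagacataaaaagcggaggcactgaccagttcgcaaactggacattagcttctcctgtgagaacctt
Igfbp5, chr1:72874816-72875115, minus strand: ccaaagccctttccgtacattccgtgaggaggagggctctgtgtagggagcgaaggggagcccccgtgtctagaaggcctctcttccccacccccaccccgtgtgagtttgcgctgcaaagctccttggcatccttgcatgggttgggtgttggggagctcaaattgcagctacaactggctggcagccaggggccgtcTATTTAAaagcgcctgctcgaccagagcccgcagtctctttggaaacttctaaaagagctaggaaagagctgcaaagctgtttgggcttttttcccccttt
Igfbp4, chr11:99040994-99041293, plus strand: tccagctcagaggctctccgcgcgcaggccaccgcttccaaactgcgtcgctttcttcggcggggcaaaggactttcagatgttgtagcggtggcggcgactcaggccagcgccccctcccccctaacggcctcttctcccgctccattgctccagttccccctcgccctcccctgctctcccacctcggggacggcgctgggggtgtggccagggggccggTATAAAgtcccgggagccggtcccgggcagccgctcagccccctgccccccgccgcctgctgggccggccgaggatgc
The Igf2 window holds 2 copies of GGGCGG, which begin 100 and 85 bases before the start, and 1 CCAAT on the opposite strand. It matches neither of the other motifs. The Igfbp5 window holds TATTTAA 51 bases before the start, and the Igfbp4 window holds TATAAA 28 bases before it. TATTTAA was added to the search after the Igfbp5 sequence had been read. Among 32851 RefSeq start windows of the same length 13.6% hold the TATA box, 37.4% hold the CCAAT box, 35.7% hold the GC box and 4.51% hold TATTTAA. All 10 members had at least 1 window, 14 in all, of which 6 held the GC box, 3 the CCAAT box, 2 the TATA box and 1 the sequence TATTTAA. A match is a run of letters and not a site shown to be used. The FPKM of Igf2 covers transcripts from all its starts, which the table does not separate.

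**Figure D1:**
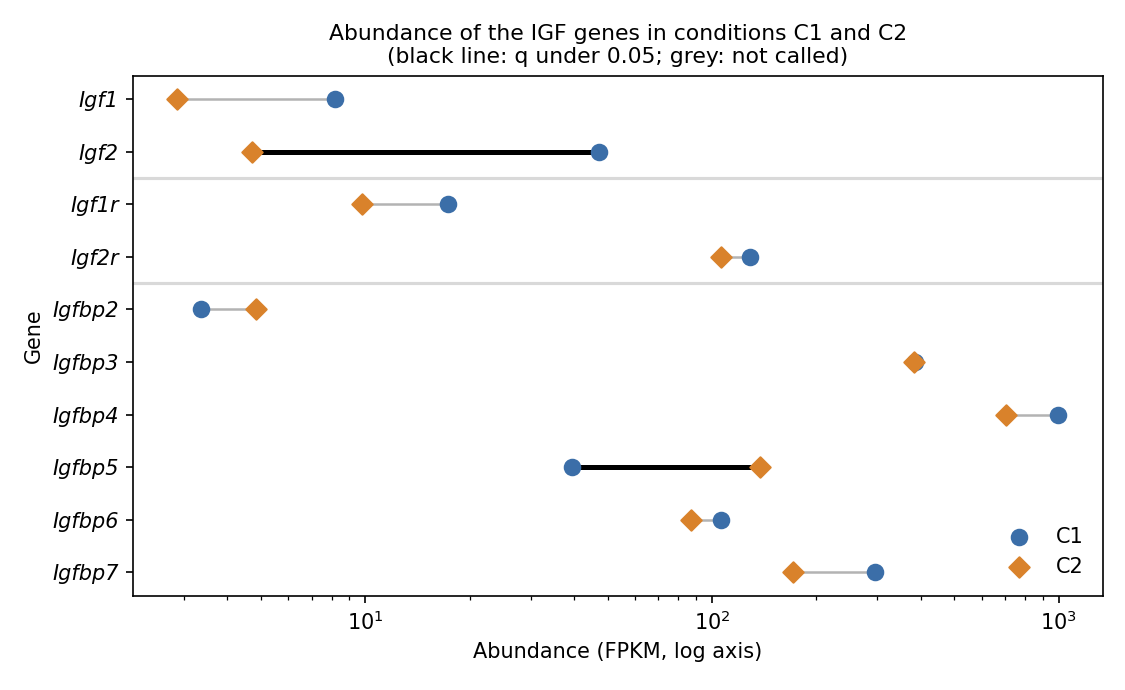
Abundance in FPKM on a log axis (x) for each of the 10 genes (y), with C1 as blue circles and C2 as orange diamonds, 1 value per condition and no error available. Black lines join the values of called genes: Igf2 moved from 47.4 to 4.71 FPKM and Igfbp5 from 39.6 to 137 FPKM. Grey lines join the other 8, and the values of Igfbp3 lie on each other.

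Of the ligands Igf2 fell, and Igf1, also at a lower value in C2, was not called. Igf2, the ligand with the higher level in both conditions (XLOC_023509, chromosome 7, 149836672 to 149856261, MGSCv37), had 47.4 FPKM under C1 but only 4.71 FPKM under C2 by the authors' deposited table. That is a log2 ratio of -3.33, and the authors' deposited table gives p = 5e-05 by Cuffdiff and q = 0.00167. This p is the smallest Cuffdiff reported, and 500 tested rows share it. Of the 16040 tested rows with at least 1 FPKM in a condition 0.779% had a lower log2 ratio. Igf2 went from percentile 85.5 to percentile 28.0 of the 13300 named genes by level. Beside it, the summed level of the skeletal muscle markers described further on was 10.3-fold lower in C2, and that of fibroblast and matrix markers 2.12-fold lower; their part in the result was not tested.

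Igf1, the ligand that growth hormone induces in liver and that many stromal cells make (XLOC_001952, chromosome 10, 87321800 to 87399792), had 8.20 FPKM under C1 and 2.87 FPKM under C2 by the authors' deposited table. Its log2 ratio of -1.52 missed the threshold, with p = 0.00365 and q = 0.0510 by the authors' deposited table. With the deposited p adjusted again over rows of at least 5 FPKM q was 0.0496, and over named rows 0.0444, so its call depends on which rows are adjusted together. Igf2 made up 85.2% of the summed ligand FPKM in C1 and 62.1% in C2, and the ratio of Igf2 to Igf1 levels went from 5.77 to 1.64. Together the ligands summed to 55.6 FPKM under C1 and 7.58 FPKM under C2. No test of these sums and ratios was possible without values per tumour.

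Neither receptor was called. Igf1r, the kinase that passes on the signal (XLOC_021923, chromosome 7, 75097106 to 75378553), had 17.3 FPKM under C1 and 9.79 FPKM under C2 by the authors' deposited table. Its log2 ratio was -0.82, and the authors' deposited table gives p = 0.00635 and q = 0.0755. Igf2r, which in the mouse is expressed from the maternal allele (XLOC_010513, chromosome 17, 12875271 to 13061009), had 129 FPKM under C1 and 106 FPKM under C2 (log2 ratio -0.28, q = 0.766) by the authors' deposited table. The level of Igf2r was 7.46 times that of Igf1r in C1 and 10.8 times in C2. Igf2r was thus the more abundant receptor in both conditions, and its level exceeded that of the summed ligands in both.

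The locus of Igf2r also holds Airn, an antisense transcript known to silence the paternal Igf2r allele, which the authors' deposited table gives at 8.95 and 9.34 FPKM (q = 0.993). The library kit marks strand, but the sources used here do not say whether the counting used it, so reads of the 2 genes may not be separated where they overlap.

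Of the 6 binding proteins Igfbp5 was called and 5 were not. Igfbp5, which binds matrix and bone mineral as well as IGFs (XLOC_000840, chromosome 1, 72904638 to 72921439), had 39.6 FPKM under C1 and 137 FPKM under C2 by the authors' deposited table. It rose by a log2 ratio of 1.796, for which the authors' deposited table gives p = 1e-04 and q = 0.00297. Among the 16040 rows of at least 1 FPKM 96.0% had a lower log2 ratio. By level it went from percentile 82.5 to percentile 95.6 of the named genes. Its tail-to-tail neighbour Igfbp2, an RGD-containing binding protein that lies 5.59 kb away on chromosome 1 (72871053 to 72899045), was the least abundant of the 6 in both conditions. Igfbp2 stood at 3.37 and 4.84 FPKM, a log2 ratio of 0.52 with q = 0.795, by the authors' deposited table.

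The 3 most abundant binding proteins in C1 were Igfbp4, Igfbp3 and Igfbp7. Igfbp4, an inhibitory binding protein and the main substrate of PAPP-A (XLOC_003539, chromosome 11, 98902573 to 98913968), had 999.6 FPKM under C1 and 705 FPKM under C2 by the authors' deposited table. Its log2 ratio was -0.50 with q = 0.462, and it lay at percentiles 99.6 and 99.5 of named genes by level. Igfbp3, the main carrier of IGFs in blood (XLOC_003804, chromosome 11, 7106095 to 7113926), was not called, at 386 and 383 FPKM by the authors' deposited table (log2 ratio -0.01, q = 0.994). Its neighbour Igfbp1, 3.55 kb away and known chiefly from liver, was not tested, and the authors' deposited table lists it at 0 under C1 and at 0.0299 FPKM under C2.

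Igfbp7 binds IGFs with low affinity and is a known product of vessels and stroma (XLOC_019216, chromosome 5, 77739508 to 77837070). It stood at 296 and 172 FPKM (log2 ratio -0.79, p = 0.0167, q = 0.144) by the authors' deposited table. The same locus holds Polr2b, a subunit of RNA polymerase II, at 30.8 and 31.2 FPKM by the authors' deposited table. Igfbp6, which prefers IGF2 to IGF1 (XLOC_008279, chromosome 15, 101974616 to 101979943), stood at 106 and 87.1 FPKM (log2 ratio -0.28, q = 0.774) in that table. These 4 genes and Igfbp2 had log2 ratios between -0.79 and 0.52, and a q above the threshold does not show that a level was the same.

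**Figure D2:**
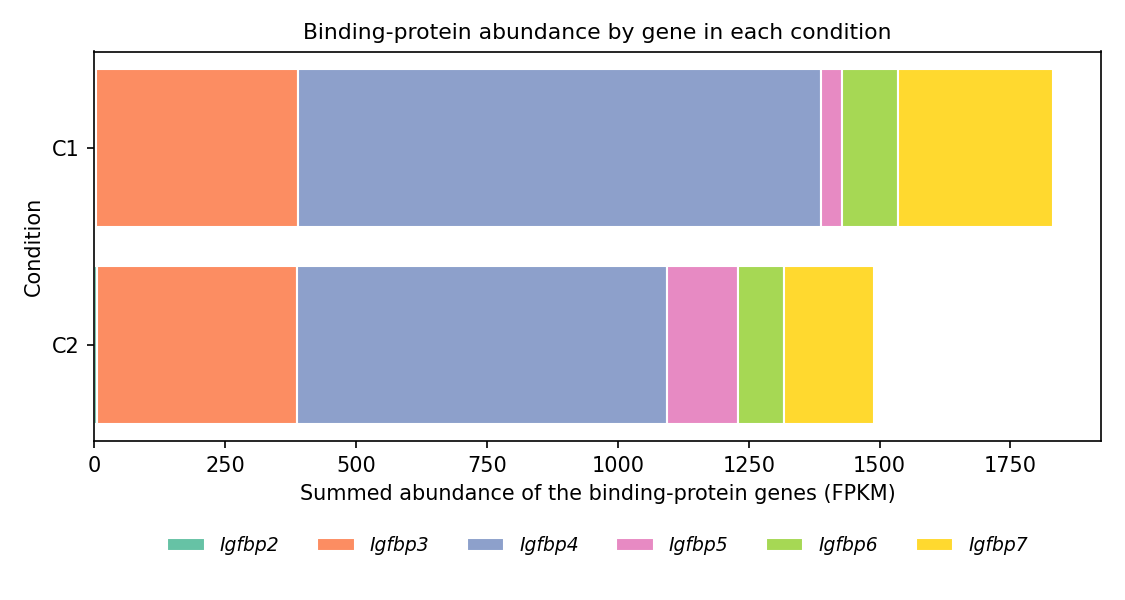
Summed abundance of the 6 binding-protein genes in FPKM (x) in C1 and C2 (y), with 1 coloured segment per gene and no error available. The sum is 1831 FPKM in C1 and 1489 FPKM in C2. The Igfbp4 segment is the widest in both, the Igfbp5 segment is wider in C2, and Igfbp2 is too small to see.

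Shares of the summed binding-protein FPKM differed between the conditions, and of the 6 genes only Igfbp5 was called. Igfbp5 was 2.16% of the summed FPKM of the 6 genes in C1 and 9.23% in C2. Igfbp4 made up 54.6% in C1 and 47.4% in C2, Igfbp3 21.1% and 25.7%, Igfbp7 16.2% and 11.5%, and Igfbp6 5.80% and 5.85%. Without Igfbp5 the sum was 1792 FPKM in C1 and 1352 FPKM in C2. The level of Igfbp4 was 25.2 times that of Igfbp5 in C1 and 5.13 times in C2. Summed binding-protein FPKM was 33.0 times summed ligand FPKM in C1 and 197 times in C2. The ligand sum was 7.33-fold lower in C2, and the binding-protein sum 1.23-fold lower. No test of these shares, sums and ratios was possible without values per tumour. They rest on levels of RNA and not of protein.

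The order of levels from high to low in C1 was Igfbp4, Igfbp3, Igfbp7, Igf2r, Igfbp6, Igf2, Igfbp5, Igf1r, Igf1 and Igfbp2. In C2 it was Igfbp4, Igfbp3, Igfbp7, Igfbp5, Igf2r, Igfbp6, Igf1r, Igfbp2, Igf2 and Igf1. The first 3 places were held by the same genes in both conditions. The highest level was 297 times the lowest in C1 and 246 times in C2. With no spread over tumours, neighbours in these orders cannot be told apart or shown to differ.

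**Figure D3:**
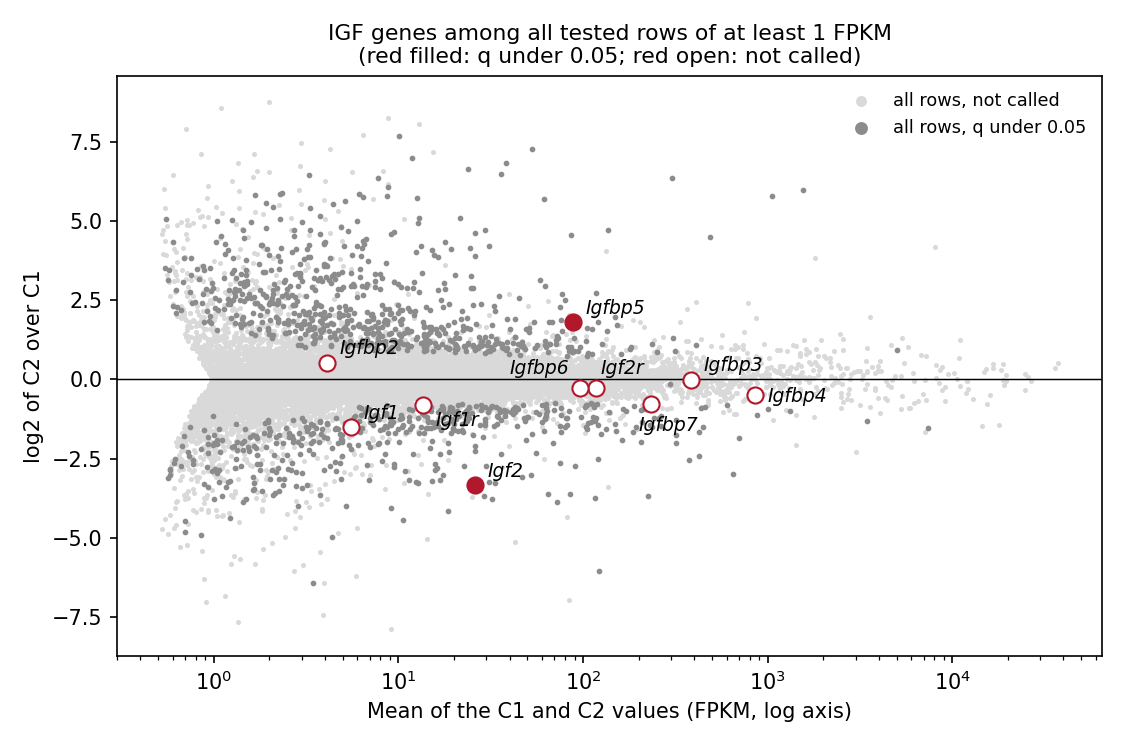
log2 of C2 over C1 (y) against the mean of both FPKM values on a log axis (x) for tested rows with at least 1 FPKM in a condition and none at 0, with called rows in dark grey. Filled red points are Igf2 (-3.33) and Igfbp5 (1.796), and open red points are the 8 members not called, which lie between -1.52 and 0.52.

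Genes with levels most like those of the called members were named by distance in log2 FPKM over the 2 condition values, which is a small basis for likeness. Nearest to Igf2 were Mustn1, a nuclear protein of the musculoskeletal system (53.8 and 4.21 FPKM, distance 0.25), and Myl1, a fast-muscle myosin light chain (59.5 and 4.39 FPKM, distance 0.35), by the authors' deposited table. Nearest to Igfbp5 were the LIM-domain gene Crip2 (39.5 and 114 FPKM, distance 0.27) and H2-K1, a class I histocompatibility gene (32.8 and 119 FPKM, distance 0.34), by the authors' deposited table.

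H19, the maternally expressed noncoding RNA that lies 72.6 kb from Igf2 and shares enhancers with it, also fell. It had 165 FPKM under C1 and 70.5 FPKM under C2 (XLOC_023508, chromosome 7, 149761435 to 149764051), a log2 ratio of -1.23 with q = 0.0131, by the authors' deposited table. The level of H19 was 3.49 times that of Igf2 in C1 and 14.97 times in C2. The 3 genes of the Igf2bp family, whose proteins bind Igf2 mRNA, were not called, and Igf2bp2, the most abundant, stood at 54.5 and 53.8 FPKM (q = 0.990) by the authors' deposited table.

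Around the ligands and binding proteins, 6 lists of pathway genes held 70 tested genes, of which 3 were called higher and 7 lower in C2, or 14.3% against 7.12% of all tested rows. Their median log2 ratio was -0.01, beside 0.05 over all tested rows. Because the lists were chosen with earlier results of these data known, the larger share is not evidence about the pathway.

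Proteases that cleave binding proteins and the inhibitors of those proteases were lower where called. Of 6 tested genes 3 were called lower, beside 2.92% of all tested rows, and the median log2 ratio was -0.67. At q under 0.01, or over rows of at least 5 FPKM, 2 were called lower. No member was called higher by Cuffdiff (0), nor at an unadjusted p under 0.05 (0). Pappa, the protease PAPP-A that cleaves Igfbp4 and Igfbp5, stood at 2.58 and 0.536 FPKM by the authors' deposited table (log2 ratio -2.27, q = 0.00167). Stc2, a secreted glycoprotein that inhibits PAPP-A, stood at 26.5 and 13.03 FPKM (log2 ratio -1.03, q = 0.0244) by the authors' deposited table. Adam12, a metalloprotease whose human form cleaves IGFBP3 and IGFBP5, stood at 7.90 and 3.26 FPKM (log2 ratio -1.28, q = 0.00537) by the authors' deposited table. The protease and its inhibitor thus both fell, while Stc1, a second inhibitor of PAPP-A, was not called, at 60.4 and 48.6 FPKM (q = 0.661) by the authors' deposited table.

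Among 6 tested genes for other IGF-binding and related proteins, 1 was called lower and none higher (0 by Cuffdiff, 1 at an unadjusted p under 0.05). Their median log2 ratio was -0.40. The share called was 16.7%, beside 7.12% of all tested rows, a count too small to set the list apart. The gene called was Esm1, an endothelial proteoglycan with a domain like that of the binding proteins, at 93.5 and 11.5 FPKM (log2 ratio -3.02, q = 0.00167) by the authors' deposited table. A second row under the same symbol and position held 3.23 and 1.67 FPKM and was not called (q = 0.962) by the authors' deposited table. Igfals, the acid-labile subunit of the blood complex, and Igfbpl1 were below 1 FPKM in both conditions in the authors' deposited table and were not tested.

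On the receptor side 1 of 15 tested insulin receptor and adaptor genes was called higher and 1 lower, with a median log2 ratio of -0.04. Together these were 13.3% of the list, beside 7.12% of all tested rows, again a small count. Insr, the insulin receptor, of which one isoform binds IGF2, went from 30.5 to 14.7 FPKM (log2 ratio -1.06, q = 0.00167) by the authors' deposited table. Socs2, a feedback inhibitor of growth hormone signalling, rose from 25.8 to 51.5 FPKM (log2 ratio 1.00, q = 0.0333) by the authors' deposited table. Of the adaptors, Irs1 and Irs2, the main docking proteins of the receptors, were at 10.3 and 10.02 FPKM and at 12.1 and 11.0 FPKM, with q of 0.979 and 0.946, by the authors' deposited table; they were chosen for mention after their values were seen.

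Of 25 PI3K, AKT, FOXO and TOR genes 1 was called higher, or 4.0%, beside 7.12% of all tested rows called in either direction. None was called lower (0 by Cuffdiff, and 0 at an unadjusted p under 0.05), and the median log2 ratio was 0.02. Pik3r3, a regulatory subunit of PI3K, rose from 6.00 to 21.2 FPKM (log2 ratio 1.82, q = 0.00167) by the authors' deposited table. In the list of Igf2 mRNA regulation and the growth hormone axis, with 9 tested genes and a median of -0.24, H19 was lower and Stat5a higher. They made up 22.2% of that list, a share resting on few genes. Stat5a, a transcription factor of growth hormone and prolactin signalling, went from 3.89 to 8.24 FPKM (log2 ratio 1.08), just inside the threshold (q = 0.0499), by the authors' deposited table. Of 9 tested genes for mannose 6-phosphate sorting and partners of Igf2r, 1 was called lower, or 11.1%. None was called higher (0 by Cuffdiff, 0 at an unadjusted p under 0.05), and the median was 0.12. The gene called lower was Plau, the urokinase that activates plasminogen, at 648 and 206 FPKM (log2 ratio -1.66, q = 0.00167) by the authors' deposited table.

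**Figure D4:**
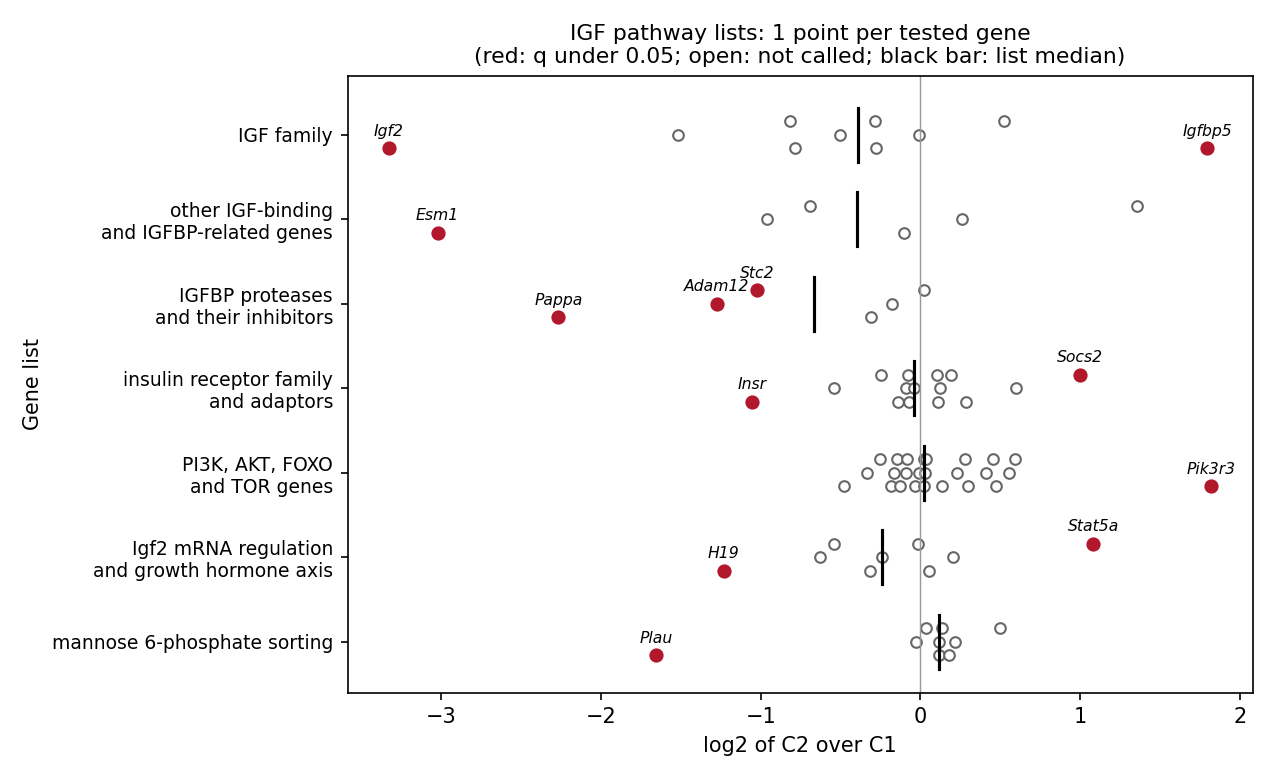
log2 of C2 over C1 (x) for each tested gene of the IGF family and of the 6 pathway lists (y), with called genes in red and named, others open, and list medians as black bars. Medians lie between -0.67 for proteases and their inhibitors and 0.12 for mannose 6-phosphate sorting.

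Markers of the cell types that a tumour can hold also differed between the conditions. Of all tested rows 4.20% were called higher and 2.92% lower in C2. Of 19 tested skeletal muscle markers 15 were called lower (0 higher by Cuffdiff, 0 at an unadjusted p under 0.05). The summed level of all 21 rows of the list went from 1635 to 158 FPKM, 10.3-fold lower in C2. Sums for this and the other marker lists include rows that were not tested. Myf6, a myogenic factor, went from 8.48 to 0.268 FPKM by the authors' deposited table. The sarcomere proteins Tnnc2 and Ttn had log2 ratios of -3.86 and -3.86 from that table. Ttn stood at 2.69 and 0.186 FPKM there, and with a pseudocount of 1 its log2 ratio was -1.64. None of these markers was listed at 0 in either condition.

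Of 19 fibroblast and matrix markers, which the implanted cells should express, 10 were called lower (0 higher by Cuffdiff, 0 at an unadjusted p under 0.05), with summed levels of 16144 and 7605 FPKM, 2.12-fold lower. Called genes furthest apart were Thy1, a surface glycoprotein (1154 and 147 FPKM), Lum (255 and 68.2 FPKM), Mmp2 (495 and 146 FPKM) and Postn (388 and 139 FPKM) by the authors' deposited table. Tcf21 was not tested, near 0 in both conditions (0.0119 FPKM and listed at 0). Of 18 epithelial markers 12 were called higher (0 lower by Cuffdiff, 0 at an unadjusted p under 0.05), with summed levels of 751 and 1234 FPKM. Called genes furthest apart, ranked by log2 ratio, were Cldn7, Ehf, Esrp1 and Cldn3, with log2 ratios of 5.73, 5.08, 4.36 and 4.15 from the authors' deposited table. Cldn7, Ehf and Esrp1 had only 0.470, 0.745 and 0.599 FPKM in C1 by that table, so the size of their ratios is uncertain. With a pseudocount of 1 the log2 ratios of the 4 genes, in the same order, were 4.14, 3.91, 3.05 and 3.71. Of the 18 values 3 were lower in C2 and not called: the keratins Krt5 (8.93 and 1.18 FPKM, q = 0.325), Krt14 (89.9 and 38.3 FPKM, q = 0.768) and Krt18 (516 and 514 FPKM, q = 0.998) by the authors' deposited table. The part of these cells in the Igfbp5, Igf2 and protease results was not tested.

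Fewer genes were called on the other marker lists, which were also shorter. The shares called were 16.7% of endothelial, 8.33% of macrophage and 16.7% of adipocyte markers, beside 7.12% of all tested rows. Of 12 endothelial markers Cdh5 was called higher (log2 ratio 0.90) and Tek lower (-1.53), with summed levels of 197 and 172 FPKM by the authors' deposited table. At an unadjusted p under 0.05 it was 1 higher and 5 lower, 10 of the 12 values were lower, and the median log2 ratio was -0.57. Among the 12 tested for macrophages 1 was called lower (0 higher by Cuffdiff, 0 at an unadjusted p under 0.05), the joined row with Ly6a, Ly6c1 and Ly6c2 (-1.84), with sums of 1925 and 1085 FPKM. That row held 1092 and 305 FPKM by the authors' deposited table, and Ly6a and Ly6c1 are not on the macrophage list. A second row with Ly6c2 went the other way, at 10.8 and 18.2 FPKM (q = 0.963), and was not called. A second Cd163 row, at 0.533 and 1.77 FPKM (q = 0.603), was also higher in C2 and not called. Both are from the authors' deposited table. Of 6 tested adipocyte markers Car3 was called lower (-0.94), with sums of 365 and 242 FPKM. No hepatocyte marker of 3 tested was called by Cuffdiff (0; 1 higher and 2 lower at an unadjusted p under 0.05), with sums of 16.5 and 9.76 FPKM, and Ttr was not tested, near 0 in both conditions (0.0299 FPKM and listed at 0). Their part in the IGF results was not tested either.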

How the data were processed

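Tumour mRNA was sequenced as single reads of 100 bases after a stranded kit, per the labels' protocols. Treatment began at 500 mm3, the siRNA was given 5 times a day, and tumours were dissected 30 minutes after dosing ended. Samples were grouped by title. Bowtie and TopHat aligned the reads to MGSCv37 and Cufflinks gave abundance, per the series' design text. Versions in the submitters' processing notes are Cufflinks 2.1.1, TopHat2 2.0.8b and CASAVA 1.8.2.

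The values the authors deposited are taken as FPKM from the Cuffdiff layout, since the header names no unit. No p-value or q-value was recomputed for calling: both were deposited by the authors. The q differed from a Benjamini-Hochberg adjustment over the 16681 tested rows by at most 5.17e-07. The deposited log2 fold column has 516 unreadable cells, so the log2 ratio was computed from the deposited values, without a pseudocount; for the members both differed by at most 7e-06. The GO selection holds gene counts and p-values that the authors deposited from BiNGO, per the file headers. The deposited test statistic, a score, was not used. Depth is unknown.

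The members and lists were chosen with earlier results of these data known. For a symbol on several rows the one of highest mean stood for it, and rows joining several genes entered a list once. Named were all members, up to 4 called genes per list by absolute log2 ratio or its most abundant gene, and the 2 single-gene rows nearest in log2 level to each called member (at least 1 FPKM in both conditions). Further genes were named after their values were seen: Irs1, Irs2, Stc1, Igfbp1, Igfals, Igfbpl1, Airn, Polr2b, Igf2bp2, Tcf21, Ttr, Krt5, Krt14 and Krt18. Coordinates are the locus intervals of the deposited table (MGSCv37) and not the bounds of single genes, and distances run between loci. Igf2r and Airn share an interval, as do Igfbp7 and Polr2b, and Igf2, Igf2as and Mir483. Start-site sequences come from RefSeq on GRCm38.p6. Code was tested on simulated data. Software was matplotlib 3.10.9, SciPy 1.17.1, pandas 2.3.3 and numpy 2.4.6 under Python 3.11.15.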

Additional observations from a re-analysis of the deposited data

How the results depend on the processing

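No paired analysis was possible because no value per tumour was available. Leave-one-out fits and joining lanes or lines were therefore not run, and depth is unknown. Of the 9 alternatives 5 could change the call of some gene: a q of 0.01, a 2-fold minimum, minimums of 1 and 5 FPKM and adjustment over named rows. Igf2 and Igfbp5 were called under each. For these 2 genes the q of 0.01 and the 2-fold minimum were settled by the q and fold already given. The FPKM minimums and named rows adjust the same deposited p over fewer rows. Their calls under these settings are therefore no added support. The remaining alternatives (pseudocounts of 0.1 and 1, re-centring and the deposited fold) act on the ratio alone. A pseudocount added to both values cannot change a direction, and the deposited fold is the same ratio. Re-centring lowered each log2 ratio by 0.056, too little to change the direction of any member. These alternatives are therefore no test of direction. Igfbp2 has no value at a minimum of 5 FPKM. Igf1 passed at 5 FPKM (q = 0.0496) and over named rows (q = 0.0444), where fewer rows are tested. A q of 0.01, which by construction passes fewer genes, called 702 of all rows, 1 of the insulin receptor and adaptor genes (also 1 with a 2-fold minimum, which Socs2 just missed) and 0 of the Igf2 regulation and growth hormone list. Alternatives for all rows and for the 30 other named genes were added after seeing the data. Of these 30 genes 8 lost their call at q under 0.01: H19, Stc2, Socs2, Stat5a, Myf6, Cdh5, Tek and Car3. Their directions could not change either, for the same reasons.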

Other observations

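The authors' selection of 28 GO terms names members of the family in 1 term. In the authors' deposited table bone development holds both Igf2 and Igfbp5 among 24 called genes of 138 annotated. For this term the authors' deposited table gives p = 7.32e-11 by BiNGO's enrichment test, and 3.25e-09 after its correction. The 2 genes moved in opposite directions. The locus of Igf2 also holds rows for Igf2as, at 0.195 and 0.0202 FPKM, and for the microRNA gene Mir483, listed at 0 in both conditions, and neither was tested in the authors' deposited table.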
